A study of Mus musculus with 12 samples.

Results

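The 8 genes described here, Cps1, Otc, Ass1, Asl, Arg1, Nags, Gls2 and Car5a, encode the 5 enzymes that carry nitrogen around the urea cycle and 3 mitochondrial enzymes that feed or switch on its first step. They were taken by symbol from a liver RNAseq table of 48795 genes, and all 8 were among the 13812 genes with enough counts to be tested. They were picked by name for their place in the pathway, with earlier results of these data known, and no measured value enters the rule. Livers came from 12 female mice aged 4 months, kept on normal chow and sexed and aged alike as littermates, with 3 mice in each of 4 groups. By their labels, Nts+/+ mice were wild type for the neurotensin gene and Nts-/- mice were whole-body knockouts, in which a deletion would be carried by every cell type and not by the liver alone. Within each genotype, mice either ate freely (Nts+/+ mice 254, 257 and 323, Nts-/- mice 277, 303 and 319) or were fasted for 22 h (Nts+/+ mice 265, 282 and 322, Nts-/- mice 284, 290 and 295). The study asked how neurotensin, a gut and brain peptide released after fat ingestion, bears on liver metabolism.

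Ammonia released from amino acids is toxic, and the liver turns it into urea. Inside periportal hepatocyte mitochondria, carbamoyl phosphate synthetase (Cps1) joins ammonia to bicarbonate and ornithine transcarbamylase (Otc) passes the product to ornithine. The citrulline formed leaves for the cytosol, where Ass1 adds aspartate, Asl splits off fumarate to leave arginine, and Arg1 releases urea and returns ornithine. Nags makes N-acetylglutamate, without which Cps1 is inactive. Gls2, the liver glutaminase, frees ammonia from glutamine beside Cps1, and Car5a, a mitochondrial carbonic anhydrase, supplies the bicarbonate. In fasting, amino acids become fuel for gluconeogenesis and their nitrogen has to be disposed of.

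Each library held between 21999647 and 45273069 counts, and each member between 462 (the lowest Car5a count) and 205304 (the highest Cps1 count) counts in every mouse. The hepatocyte markers summed to between 110627 and 140202 TMM-normalized CPM (counts scaled to the size of the library and then for its composition), of which Alb alone held between 87142 and 114548. Of the 4 kidney and intestine markers, 3 (Umod, Slc12a1 and Vil1) had too few counts to be tested. The other, Fabp2, was at 41.2 to 95.1 TMM-normalized CPM in fed and at 106 to 203 in fasted mice. The Nts gene had 0 counts in all 6 libraries labelled Nts+/+ and between 4 and 46 counts in each library labelled Nts-/-. Reads of the targeted gene were thus seen only under the knockout label. The structure of the allele is not given in the sources used here, so these counts could not settle whether the labels are right. Every genotype direction given here is that of the deposited labels. In whole liver, fewer cells of a type and less RNA per cell cannot be told apart, and all values are shares of the RNA sequenced. No label says that the 3 mice of a group came from separate litters, and p-values measure the spread between these mice only.

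Fasting split the urea cycle genes. Averaged over both genotypes, Asl, Arg1 and Cps1 rose and Car5a, Gls2 and Otc fell, while Ass1 and Nags did not pass the test. This was 3 of 8 members higher, against 16% of all tested genes, and 3 of 8 lower, against 16.8% (edgeR quasi-likelihood test, Benjamini-Hochberg adjusted p under 0.05). In the 6 Nts+/+ livers alone, 2 members rose (8.91% of all tested genes did) and 2 fell (9.19%), and in the 6 livers labelled Nts-/- 2 rose (7.7%) and 2 fell (9.14%). Asl, Arg1 and Car5a passed in both genotypes, Otc in Nts+/+ livers and Gls2 in livers labelled Nts-/-. The median absolute log2 change over the 8 members was 0.66 in the averaged comparison, beside 0.27 over all tested genes. The averaged comparison uses the same mice as the 2 within-genotype comparisons and adds no mice to them. Below, overlap between fed and fasted mice is given for each member as a description only. The share of all tested genes without overlap was not counted, and an exact permutation test of 3 against 3 mice gives no p below 0.1.

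**Figure D1:**
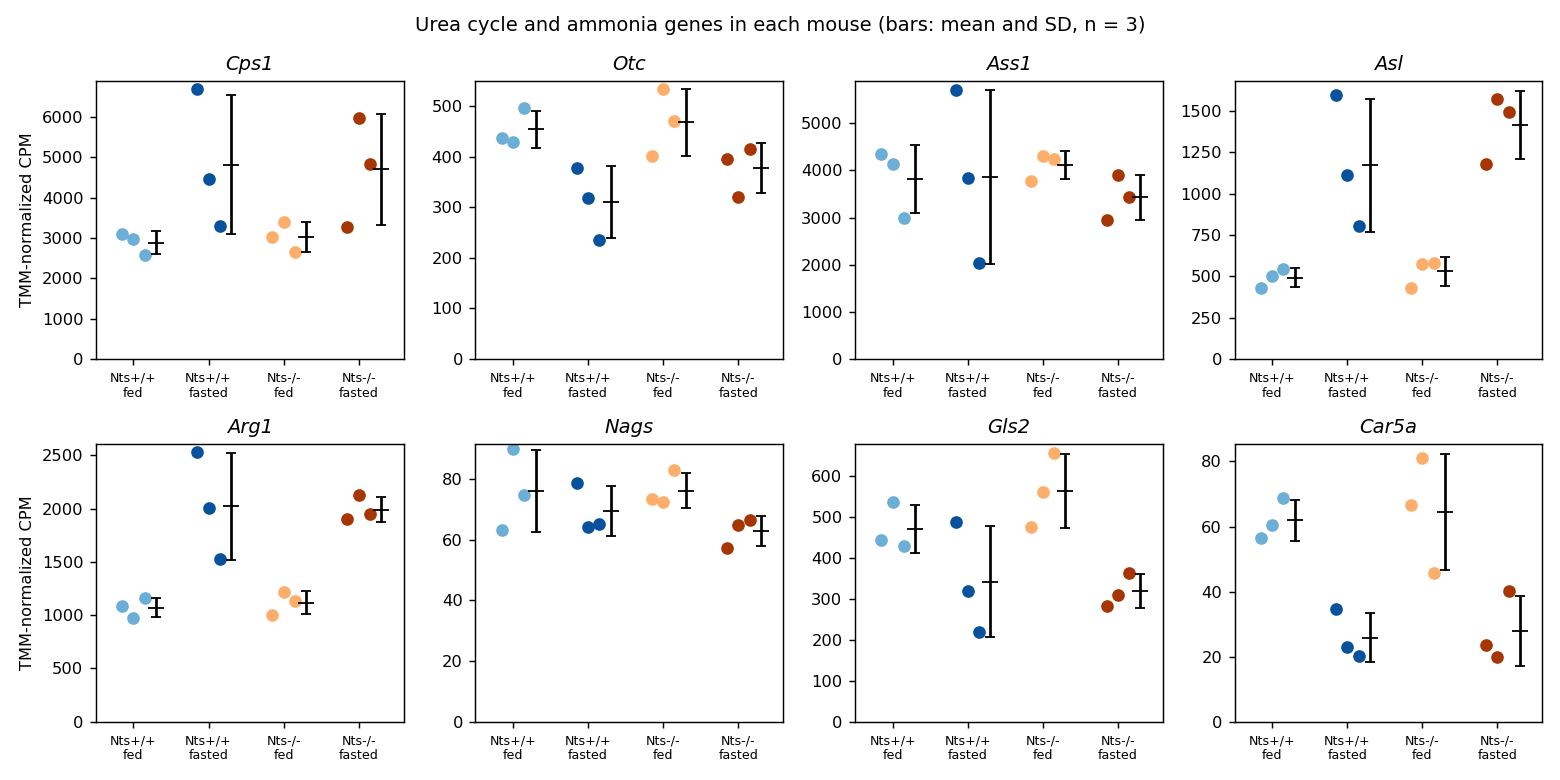
TMM-normalized CPM (y axis, from 0) of the 8 genes in each of the 12 mice (points) by group, with the mean and SD of the 3 mice of a group beside them. Asl and Arg1 are higher and Car5a lower in each fasted group with no overlap with its fed group, and for all genes but Nags and Car5a the fasted Nts+/+ group has the largest SD. The share of all tested genes without overlap was not counted.

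The cycle starts with Cps1 (ENSMUSG00000025991, GRCm38 chr1:67123026-67231259), among the most abundant proteins of liver mitochondria and the step at which ammonia enters. Cps1 was at 3111, 2979 and 2570 TMM-normalized CPM in the fed Nts+/+ mice 254, 257 and 323, and at 6687, 4469 and 3289 in the fasted Nts+/+ mice 265, 282 and 322. Fed and fasted Nts+/+ mice did not overlap, although mouse 322 lay close to the fed range. In livers labelled Nts-/- Cps1 was at 3016, 3406 and 2663 in fed mice 277, 303 and 319, and at 3264, 5989 and 4847 in fasted mice 284, 290 and 295. Mouse 284 fell within the fed range while the other fasted mice lay above it. The log2 change was 0.74 ± 0.25 (SE of the fit to all 12 mice, n = 3 against 3 compared, edgeR adjusted p = 0.0585) in Nts+/+ livers. It was 0.63 ± 0.25 (adjusted p = 0.101) in livers labelled Nts-/-, and neither change passed the threshold. Over both it was 0.69 ± 0.18 (1.61-fold, adjusted p = 0.00962), which passed. The Nts+/+ change passed without mouse 322 (adjusted p = 0.0188) and with DESeq2 (adjusted p = 0.0175).

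Otc (ENSMUSG00000031173, chrX:10252305-10321024), the next mitochondrial step, went the other way. Its TMM-normalized CPM was 437, 430 and 497 in fed and 377, 318 and 236 in fasted Nts+/+ mice, with every fasted mouse below every fed one. In livers labelled Nts-/- it was 401, 533 and 471 in fed and 395, 321 and 416 in fasted mice. There the groups overlapped, since fasted mouse 295 lay above fed mouse 277. Otc fell by 0.55 ± 0.18 on the log2 scale in Nts+/+ livers (edgeR adjusted p = 0.0456) and by 0.43 ± 0.12 over both genotypes (1.35-fold lower, adjusted p = 0.0172). The change in livers labelled Nts-/- was -0.31 ± 0.18 (adjusted p = 0.25). The Nts+/+ call was lost in 8 of 15 alternative analyses, among them leaving out any of mice 254, 257, 323, 282 or 322, while the log2 change stayed between -0.70 and -0.38.

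Ass1 (ENSMUSG00000076441, chr2:31470207-31520672), which condenses citrulline with aspartate and is often described as limiting for the cycle, showed no change past the threshold. It was at 4344, 4127 and 2987 TMM-normalized CPM in fed Nts+/+ mice and at 5709, 3828 and 2040 in fasted ones, so fasted mouse 265 was the highest and fasted mouse 322 the lowest of all 12. In livers labelled Nts-/- it was at 3764, 4303 and 4249 when fed and at 2941, 3910 and 3430 when fasted. Only mouse 290 of those fasted reached the fed range. The averaged log2 change was -0.12 with a 95% interval from -0.56 to 0.31 (edgeR adjusted p = 0.678), an interval that runs from 0.68-fold to 1.24-fold.

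Asl (ENSMUSG00000025533, chr5:130011258-130029247), which cleaves argininosuccinate, showed the largest rise of the 8. It was at 431, 499 and 544 TMM-normalized CPM in fed and at 1600, 1113 and 802 in fasted Nts+/+ mice. Mice labelled Nts-/- had 431, 578 and 581 fed and 1182, 1573 and 1492 fasted. All 6 fasted mice lay above all 6 fed mice. Asl rose 2.38-fold (95% interval 1.71 to 3.34, edgeR adjusted p = 0.0024) in Nts+/+ livers and 2.67-fold (1.91 to 3.74, adjusted p = 0.000975) in livers labelled Nts-/-.

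Arg1 (ENSMUSG00000019987, chr10:24915208-24927470), the liver arginase that releases urea, rose too. Its TMM-normalized CPM was 1081, 975 and 1158 in fed and 2530, 2000 and 1530 in fasted Nts+/+ mice. It was 999, 1217 and 1132 in fed and 1900, 2124 and 1948 in fasted mice labelled Nts-/-. Again no fasted mouse overlapped a fed one. The rise was 1.89-fold (1.46 to 2.44, edgeR adjusted p = 0.0033) in Nts+/+ livers and 1.78-fold (1.38 to 2.31, adjusted p = 0.00568) in livers labelled Nts-/-. The isozyme Arg2, a mitochondrial arginase found mostly outside the liver, was at 0.18 to 0.30 TMM-normalized CPM in fed and at 0.40 to 0.60 in fasted mice. It met the count filter through the fasted libraries alone, so its averaged log2 change of 1.10 ± 0.26 carries no weight.

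Of the genes that serve the first step, Car5a (ENSMUSG00000025317, chr8:121916126-121944904) changed most. It was at 56.3, 60.5 and 68.8 TMM-normalized CPM in fed and at 34.5, 22.9 and 20.2 in fasted Nts+/+ mice. Mice labelled Nts-/- had 66.6, 81.0 and 45.7 fed and 23.4, 20.0 and 40.3 fasted. The lowest fed and the highest fasted values, mice 319 and 295, were close to each other but did not overlap. Car5a fell by 1.26 ± 0.29 on the log2 scale in Nts+/+ livers (edgeR adjusted p = 0.0127), by 1.20 ± 0.29 in livers labelled Nts-/- (adjusted p = 0.0159) and by 1.23 ± 0.21 over both (2.35-fold lower, adjusted p = 0.000933). The Nts+/+ call was lost without mouse 282 (adjusted p = 0.0608), and the call in livers labelled Nts-/- without mouse 277, 303, 284 or 290 (adjusted p between 0.0559 and 0.0655). Its isozyme Car5b, of wider tissue distribution and at most 4.99 TMM-normalized CPM, fell as well, by 1.45 ± 0.19 over both genotypes (adjusted p = 8.67e-05). The gene model Gm20388 spans the whole of Car5a and drew 7139 counts in all mice beside 15462 for Car5a. The strand setting of the counting is not given in the sources used here, so reads of the 2 could not be separated. Gm20388 itself had an averaged log2 change of 1.09 (adjusted p = 0.397).

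Gls2 (ENSMUSG00000044005, chr10:128194457-128210004) was at 444, 539 and 431 TMM-normalized CPM in fed and at 489, 321 and 218 in fasted Nts+/+ mice. Here fasted mouse 265 lay inside the fed range. It was at 475, 561 and 657 in fed and at 282, 310 and 364 in fasted mice labelled Nts-/-, without overlap. Gls2 fell by 0.82 ± 0.24 on the log2 scale in livers labelled Nts-/- (edgeR adjusted p = 0.0308) and by 0.64 ± 0.17 over both genotypes (1.56-fold lower, adjusted p = 0.0103), and its change in Nts+/+ livers was -0.46 ± 0.24 (adjusted p = 0.201). Without mouse 265 the Nts+/+ change was -0.79 and passed (adjusted p = 0.0238), and without mouse 303, 319, 284 or 290 the call in livers labelled Nts-/- was lost (adjusted p between 0.0762 and 0.114). Gls2 shares 97 bp with Spryd4, which rose slightly over both genotypes (log2 change 0.28, adjusted p = 0.0493).

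Nags (ENSMUSG00000048217, chr11:102145513-102149477), whose product is the obligate activator of Cps1, moved least beside Ass1. It was at 63.2, 90.0 and 74.8 TMM-normalized CPM in fed and at 78.8, 64.1 and 65.2 in fasted Nts+/+ mice, which overlapped. In livers labelled Nts-/- it was at 73.3, 72.3 and 83.0 when fed and at 57.3, 64.9 and 66.3 when fasted, where every fasted mouse lay below every fed one. The averaged log2 change was -0.20 (95% interval -0.42 to 0.01, edgeR adjusted p = 0.132). As a plain share of all counts, without scaling for library composition, Nags was lower in fasted mice (63.5 against 79.1 CPM, 6 against 6 mice, two-sided exact permutation test, p = 0.00649). The same exact test on the other members gave p = 0.00216, the smallest that 6 against 6 mice allow, for Otc, Asl, Arg1 and Car5a, 0.00433 for Gls2, 0.0195 for Cps1 and 0.223 for Ass1, each without adjustment for the 8 genes tested. On this scale Otc did not overlap between fed and fasted mice, whereas TMM-normalized it did.

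**Figure D2:**
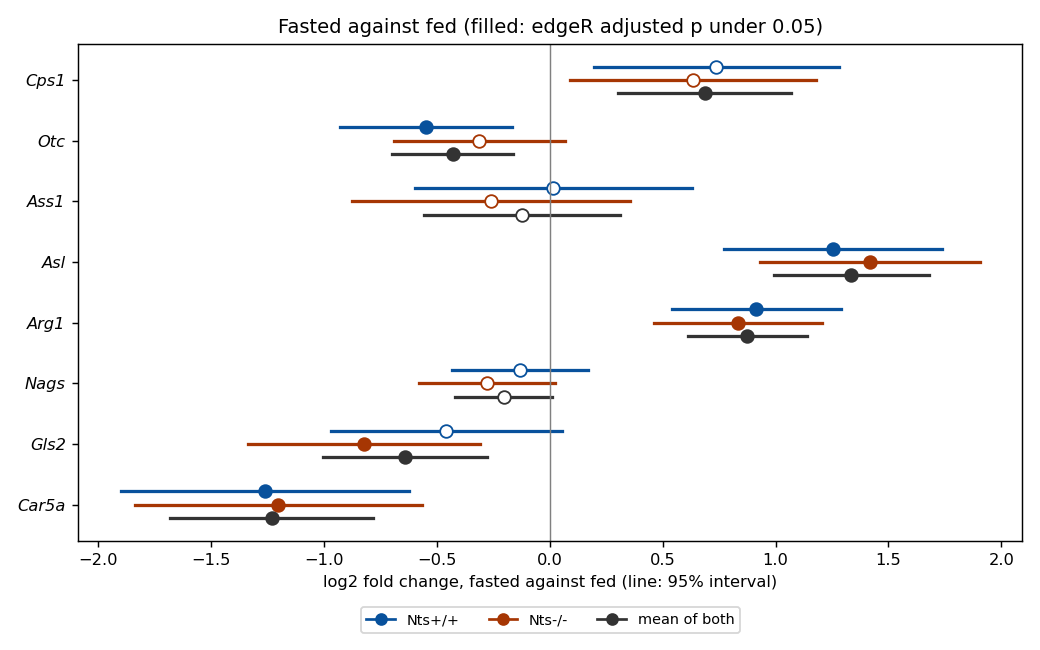
Log2 fold change, fasted against fed (x axis), of each gene with its 95% interval, in Nts+/+ livers, in livers labelled Nts-/- and as the mean of both; filled points passed the edgeR test at an adjusted p under 0.05. Cps1, Asl and Arg1 lie to the right of 0 and Otc, Gls2 and Car5a to the left in both genotypes.

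The bases upstream of 3 mitochondrial genes are shown. Averaged over both genotypes, their log2 changes with fasting were -1.23 for Car5a, -0.43 for Otc and -0.20 for Nags, which did not pass. The intervals of Otc (-0.70 to -0.16) and Nags (-0.42 to 0.01) overlapped. Whether the changes of these genes differ from each other was not tested. RefSeq promoter entries (build GRCm38.p6) were at hand for Otc, Ass1, Nags and Car5a. Those of Car5a, Otc and Nags are shown from 250 to 51 bases before the annotated start. Each is read 5′ to 3′ along its gene's strand, with capitals marking matches to a searched element.
Car5a, minus strand, chr8:121944963-121945162: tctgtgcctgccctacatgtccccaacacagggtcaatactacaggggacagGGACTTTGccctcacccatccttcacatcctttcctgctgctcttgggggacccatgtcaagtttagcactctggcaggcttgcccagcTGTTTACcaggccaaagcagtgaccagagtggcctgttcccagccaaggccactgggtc
Otc, plus strand, chrX:10252055-10252254: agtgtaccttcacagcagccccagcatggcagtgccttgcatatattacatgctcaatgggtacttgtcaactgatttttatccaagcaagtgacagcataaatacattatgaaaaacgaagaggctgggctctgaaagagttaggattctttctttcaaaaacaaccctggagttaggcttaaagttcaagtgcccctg
Nags, plus strand, chr11:102145263-102145462: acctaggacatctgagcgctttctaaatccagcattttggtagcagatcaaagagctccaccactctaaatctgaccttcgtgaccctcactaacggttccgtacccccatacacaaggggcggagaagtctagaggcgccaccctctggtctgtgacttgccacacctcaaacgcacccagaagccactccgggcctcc

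The elements searched, on both strands over the 250 bases before the start, were the forkhead element TGTTTAC, the cAMP response half-site TGACG, the E-box CACGTG, the C/EBP element TTGCNNAA, the HNF4A-type element CAAAGTCC, the TATA box TATAAA and the palindromic glucocorticoid response element. Car5a held TGTTTAC 109 bases before its start, an element present in 3.17% of the 32851 RefSeq promoters searched alike, and CAAAGTCC on the reverse strand (printed as its complement) 198 bases before it, present in 1.2%. Otc and Nags held none of the 7, and Ass1 held 1 E-box, 36 bases before its start, an element present in 6.02% of promoters. The half-site occurs in 17.8% of promoters, the C/EBP element in 9.56%, the TATA box in 12.4% and the glucocorticoid element in 0.00913%. A match describes letters, not binding, and binding was not measured in these livers.

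The order of transcript levels can be read only per length of transcript. Per kb of the longest annotated transcript, mean TMM-normalized CPM in the 6 fed mice was 2048 ± 270 (SD) for Ass1, 679 ± 58.2 for Arg1, 532 ± 54.9 for Cps1, 192 ± 25.7 for Asl, 171 ± 28.4 for Gls2, 149 ± 15.6 for Otc, 31.9 ± 6.08 for Car5a and 28.0 ± 3.42 for Nags. Among neighbours in that order, Arg1 and Cps1, Asl and Gls2, Gls2 and Otc, and Car5a and Nags overlapped between mice, whereas Ass1 stood apart. In the 6 fasted mice Ass1 (1883 ± 632), Arg1 (1245 ± 202), Cps1 (856 ± 251) and Asl (486 ± 119) each overlapped with the next in that order, Otc (111 ± 21.3) and Gls2 (110 ± 30.3) overlapped, and Car5a (13.6 ± 4.28) lay below Nags (24.4 ± 2.58). Per kb of coding sequence Otc ranked above Asl in fed mice (425 against 367). By TMM-normalized CPM without length, Cps1 ranked 36th and Ass1 38th of the 13812 tested genes, and Car5a 2697th.

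Ratios of 2 members within a library do not depend on the scaling between libraries. Asl to Otc went from between 0.986 and 1.23 in the 6 fed mice to between 2.99 and 4.90 in the 6 fasted mice, a rise of the mean of 3.44-fold in Nts+/+ livers and 3.39-fold in livers labelled Nts-/-. Cps1 to Otc, the first mitochondrial pair, went from 5.18 to 7.53 up to 8.26 to 18.7. Cps1 to Car5a, the enzyme and the one that supplies its bicarbonate, went from 37.4 to 58.3 up to 120.3 to 299.5, and Arg1 to Ass1 from 0.236 to 0.388 up to 0.443 to 0.750. None of these 4 ratios overlapped between fed and fasted mice. Each sets a member that rose over one that fell or did not pass, so their separation adds no support to the changes given above. Of the further ratios computed, only Glul to Gls2 overlapped (0.663 to 2.74 in fed and 1.63 to 5.44 in fasted mice). The share over other pairs of genes was not counted. The 8 members together held between 0.840% and 1.60% of all counts, and the extremes were the fasted Nts+/+ mice 322 and 265.

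The members also varied together among mice of the same group. After each gene was centred on the mean of its group (log2 CPM, 12 mice), all 28 pairs of members had a positive Pearson correlation, with a median of 0.67 and a range from 0.21 to 0.90, the highest between Asl and Arg1. By comparison, the median correlation of a member with all other tested genes was between -0.02 and 0.01. These points share library and depth, and no test was made of them. Among the fasted Nts+/+ mice, mouse 265 lay above its group's mean for 8 of 8 members (by 0.45 on average) and mouse 322 below it for 8 of 8 (by -0.44 on average). For Car5a and Nags, other mice deviated more (Car5a by 0.60 in mouse 295 and by -0.46 in mouse 319). Members that fasting raised and members that it lowered deviated in the same direction in mice 265 and 322. In every other mouse, members lay on both sides of the group mean. In fed Nts+/+ mice 254, 257 and 323, 3, 5 and 4 of 8 members lay above it. The correlations without mice 265 and 322 were not computed. The hepatocyte marker sum was 139596 TMM-normalized CPM in mouse 265 (Alb alone 111786) and 119706 in mouse 322 (Alb alone 96958). Their scaling factors were 0.915 and 1.02, and mitochondrially encoded genes held 3.33% and 3.53% of counts. The part of these differences in the shared variation was not tested.

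**Figure D3:**
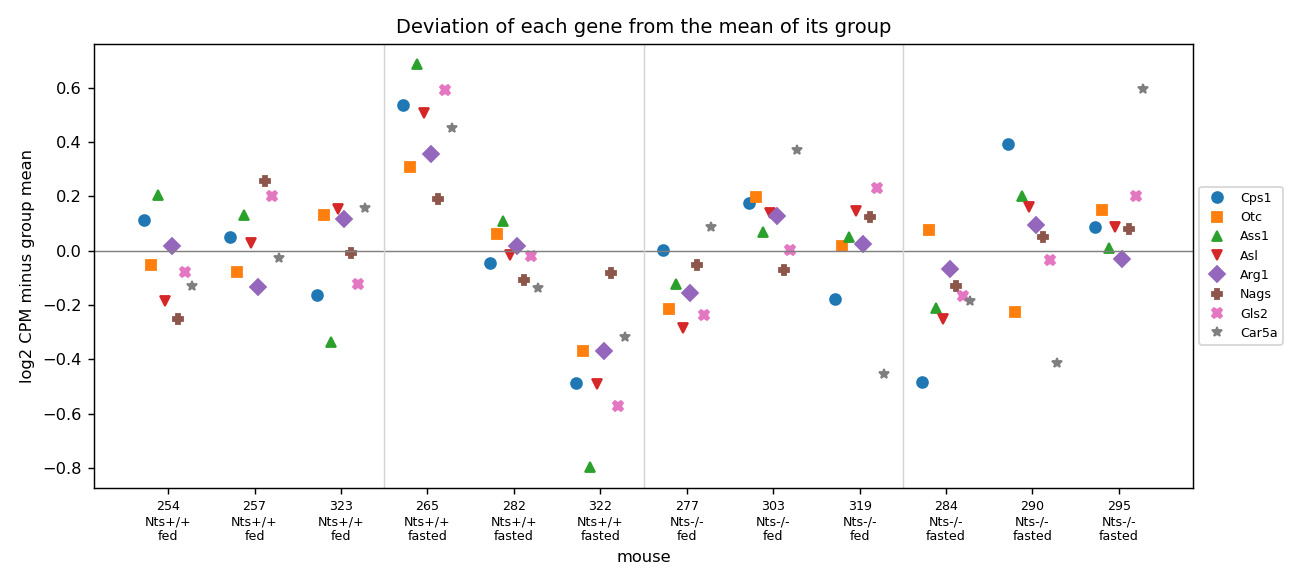
Log2 CPM of each gene minus the mean of its group (y axis) in each of the 12 mice (x axis, with group). All 8 genes lie above 0 in fasted Nts+/+ mouse 265 and below 0 in fasted Nts+/+ mouse 322, while in the other 10 mice the genes lie on both sides of 0.

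The second question was whether the genotype label changed the level of these genes or their response to fasting. None of the 8 members passed the edgeR test between genotypes in fed livers (0% of all tested genes did), in fasted livers (0%) or in the difference between the fasting responses (0%). At an unadjusted p under 0.05, 0 of 8 members passed in each of the 3 comparisons, beside 876, 685 and 663 of the 13812 genes, and DESeq2 and limma-voom called 0 members in each as well. Fed, the log2 differences (label Nts-/- minus Nts+/+) ran from 0.00 for Nags (95% interval -0.30 to 0.30) to 0.26 for Gls2 (-0.25 to 0.77). Fasted, they ran from -0.17 for Ass1 (-0.78 to 0.44) to 0.28 for Otc (-0.10 to 0.66), with 0.27 for Asl (-0.20 to 0.75). The differences between the fasting responses ran from -0.37 for Gls2 (-1.09 to 0.36, edgeR adjusted p = 0.906) to 0.24 for Otc (-0.30 to 0.77, adjusted p = 0.921). Those are the 2 members called in a single genotype, and for both the difference itself did not pass.

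The width of these intervals sets what could have been seen. Arg1 differed between fasted genotypes by -0.02 (-0.39 to 0.35), an interval that holds changes from 0.763-fold to 1.27-fold, and Nags between fed genotypes within 0.813-fold and 1.23-fold. For Cps1, the difference of responses was -0.10 (-0.87 to 0.66), so differences of up to 1.58-fold upward and 0.548-fold downward lie within the interval. Every pair of genotype groups overlapped for all 8 members, fed and fasted. The share over all tested genes was not counted, so this is not a result about the members.

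**Figure D4:**
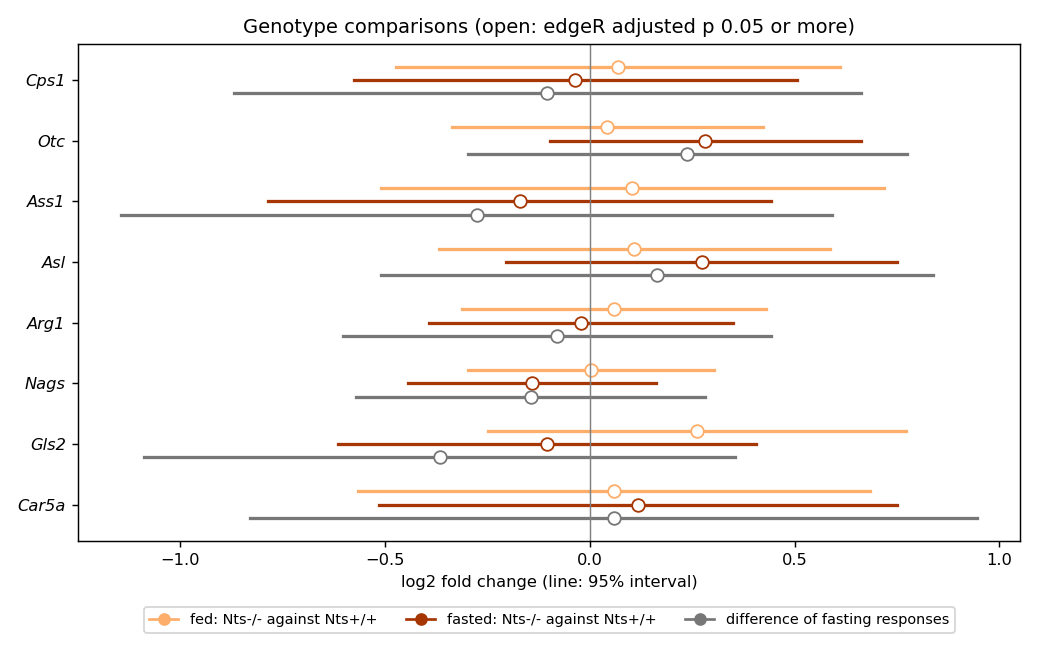
Log2 difference between genotype labels (x axis, with 95% interval) in fed livers and in fasted livers, and the difference of the fasting responses, for each gene; open points did not pass the edgeR test. All 24 intervals include 0, and those of Arg1 and Nags are the narrowest.

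Around the members, 41 genes of the pathway were listed by function and 37 of them had enough counts (Slc25a2, Slc25a18, Slc38a5 and Slc14a1 did not). With fasting averaged over both genotypes, 20 rose (16% of all tested genes did), 6 fell (16.8%) and 11 did not pass, with a median log2 change of 0.53 beside -0.01 over all tested genes. The 20 include Arg2 and Aqp3, which met the count filter through the fasted libraries alone. In Nts+/+ livers 13 rose (8.91% of all tested genes did) and 3 fell (9.19%), and in livers labelled Nts-/- 14 rose (7.7%) and 5 fell (9.14%). The counts by function that follow are for the averaged comparison unless a genotype is named, and its 16% and 16.8% hold for them too. No gene of the list passed between genotypes or in the difference of responses (edgeR), so the counts of the 2 genotypes are not shown to differ.

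All 4 mitochondrial carriers tested rose over both genotypes. Slc25a15, which exchanges ornithine for citrulline and so links Otc to Ass1, went from 275 to 410 TMM-normalized CPM in fed mice up to 390 to 555 in fasted ones (log2 change 0.58 ± 0.11, edgeR adjusted p = 0.00154). The aspartate-glutamate carriers Slc25a13 and Slc25a12, which bring aspartate to Ass1, rose by 0.57 and 0.53, and the glutamate carrier Slc25a22 by 0.90. The carriers before Ass1 and the lyase after it thus rose in the averaged comparison, in which Ass1 did not pass. Within livers labelled Nts-/- 3 of the 4 passed, and Slc25a12 (0.45, adjusted p = 0.0508) did not.

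Of 7 genes that supply glutamate, aspartate and ammonia, 5 rose, 1 fell and 1 did not pass over both genotypes. In Nts+/+ livers 3 rose and 0 fell, and in livers labelled Nts-/- 3 rose and 1, Glud1, fell. Oat, which turns ornithine into glutamate semialdehyde, rose most, from 526 to 1191 TMM-normalized CPM in fed mice up to 1327 to 3186 in fasted ones (3.32-fold). The aminotransferases Got1, Gpt2, Gpt and Got2, which move amino groups between glutamate, aspartate and alanine, rose 2.24-fold, 2.17-fold, 1.35-fold and 1.32-fold. Glud1, glutamate dehydrogenase, which releases ammonia in the mitochondria, fell by 0.42 ± 0.10 on the log2 scale (edgeR adjusted p = 0.0047), the same direction as Gls2. Asns, asparagine synthetase (0.56), did not pass.

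Ammonia that escapes the cycle is taken up as glutamine by pericentral hepatocytes. Glul, glutamine synthetase, was at 436 to 1180 TMM-normalized CPM in fed and at 799 to 1188 in fasted mice and did not pass (log2 change 0.11, edgeR adjusted p = 0.667). The glutamate transporter Slc1a2 and the ammonia channel Rhbg of the same cells rose over both genotypes, by 0.63 and 0.59. In Nts+/+ livers none of the 3 passed, at an unadjusted p under 0.05 either (0 of 3), with 0.28 for Slc1a2 and 0.22 for Rhbg, and in livers labelled Nts-/- Slc1a2 (0.98) and Rhbg (0.97) passed. Among 4 amino acid transporters tested, Slc7a2, the liver's arginine and ornithine carrier, rose by 0.88 and Slc38a4, a neutral amino acid carrier, by 0.55, Slc38a3, which carries glutamine, fell by 0.44, and Slc38a2 did not pass (0.16).

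Among the isozymes and users of arginine, Odc1, ornithine decarboxylase, rose (0.55), Car5b and Gatm, which uses arginine to begin creatine synthesis, fell (by 1.45 and by 0.81), and Agmat and Cad did not pass. Arg2 was called higher too (1.10), but it met the count filter through the fasted libraries alone. Of 3 tested water, urea and glycerol channels, Aqp8 fell from 130 to 316 TMM-normalized CPM in fed mice to 12.6 to 32.3 in fasted ones (a fall of 3.10 on the log2 scale, edgeR adjusted p = 1.57e-05). Aqp9, the main glycerol channel of hepatocytes, which also passes urea, rose by 0.55. Aqp3 had 0 or 1 counts in each fed mouse and between 7 and 17 in each fasted one. It met the count filter through the fasted libraries alone, so its place among the genes that rose carries no weight. Of 10 regulators, the transcription factors Cebpb, Ppara and Creb3l3 rose over both genotypes (2.21-fold, 1.68-fold and 1.65-fold), the glucocorticoid receptor Nr3c1 fell by 0.47, and Gcgr, Cebpa, Hnf4a, Klf15, Sirt3 and Sirt5 did not pass. Sirt3, a mitochondrial deacylase, passed in livers labelled Nts-/- alone (0.42, adjusted p = 0.0408).

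**Figure D5:**
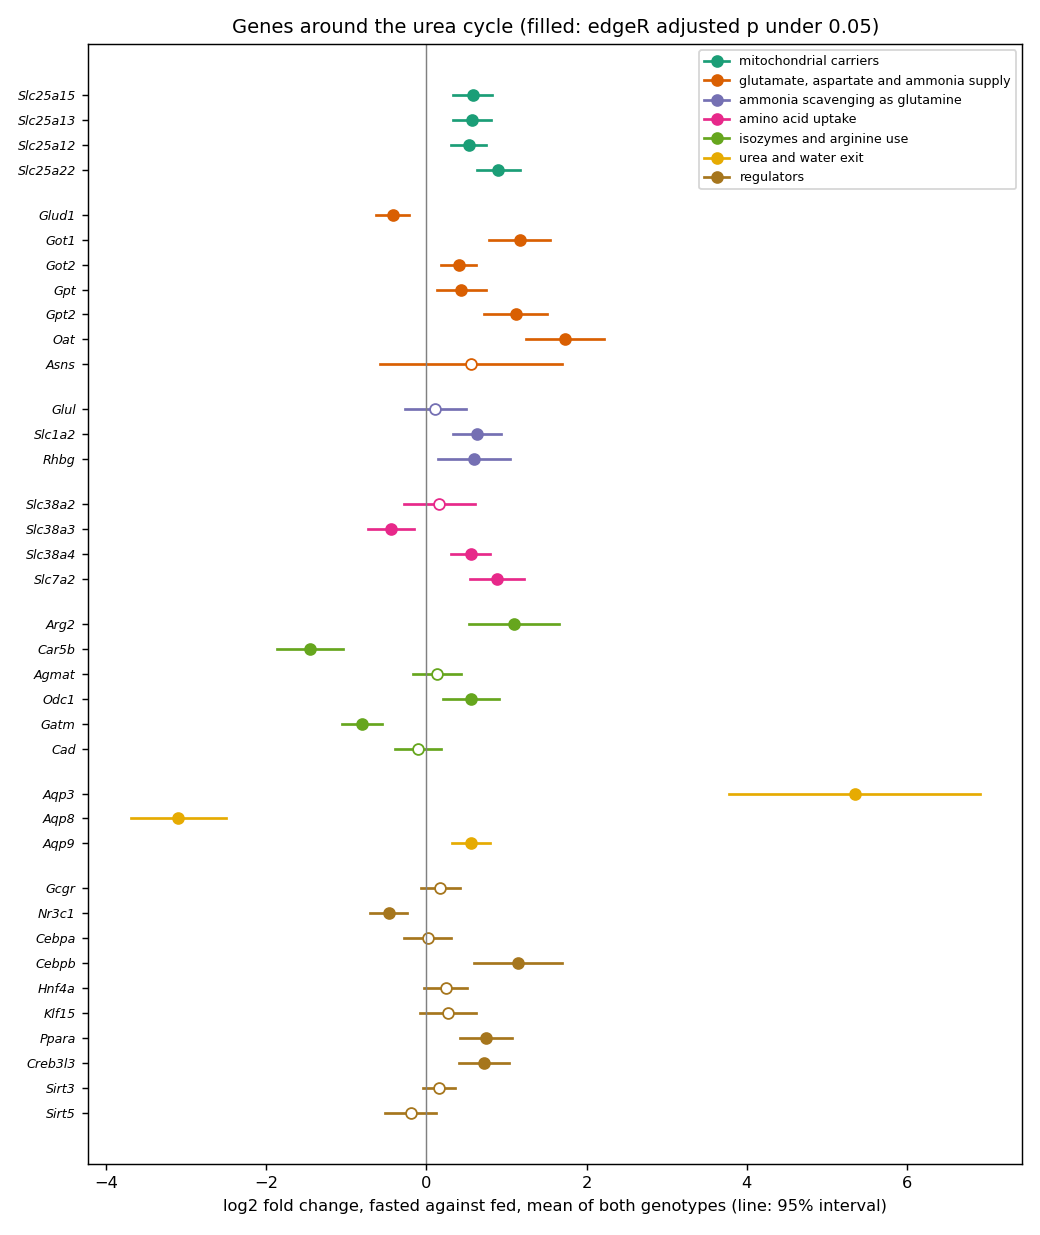
Log2 fold change, fasted against fed, as the mean of both genotypes (x axis, with 95% interval) for the 37 tested pathway genes, coloured by function; filled points passed the edgeR test at an adjusted p under 0.05. All 4 carriers lie to the right of 0, and Aqp8, Car5b and Gatm lie farthest to the left.

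Markers of liver zones and of other cell types were counted in the averaged comparison, in which 16% of all tested genes rose and 16.8% fell, shares that several of the lists with few calls do not exceed. Of 8 periportal hepatocyte markers, the zone in which urea is made, 2 rose (Pck1 and Hsd17b13) and 4 fell (Gls2, which is also a member, Cyp2f2, Aldh1b1 and Ctsc), and their sum ran from 2557 to 4479 TMM-normalized CPM in fed and from 4402 to 6246 in fasted mice. Pck1 alone ran from 325 to 1698 in fed and from 2262 to 4072 in fasted mice, and the median log2 change of the 8 markers was -0.22. Of 8 pericentral markers, 4 rose (Oat, Slc1a2 and Rhbg, which are also on the pathway list, and Cyp2e1), Cyp1a2 fell, and Glul, Axin2 and Lgr5 did not pass. The sum of the 8 ran from 4514 to 9227 in fed and from 12356 to 16827 in fasted mice. Cyp2e1 alone ran from 3243 to 6749 in fed and from 9465 to 12803 in fasted mice. None of these markers was at 0 in a whole group. Of 8 hepatocyte markers, 1 rose and 2 fell. The part of these differences in the changes of the 8 members was not tested. Other cell types gave 0 higher and 1 lower of 6 Kupffer cell markers, 1 higher and 3 lower of 6 sinusoidal endothelium markers, 0 higher and 4 lower of 6 stellate cell markers, 0 higher and 1 lower of 4 tested cholangiocyte markers, 0 higher and 0 lower of 5 lymphocyte markers and 0 higher and 1 lower of 3 erythroid markers. Fabp2, the 1 tested kidney and intestine marker, rose (log2 change 1.40).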

How the data were processed

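Liver RNA of 12 mice was sequenced. The authors deposited 1 table of expected counts (estimates of each gene's reads, fractional where a read fits several genes), unscaled between mice, with GRCm38 positions. The submitters' processing notes name Trimmomatic, RSEM and GRCm38, and versions and strand setting are not given in the sources used here. The sample labels used here do not set any mice apart by batch, and no batch term was fitted.

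Expected counts were rounded. In R 4.3.3, edgeR 4.0.16 kept 13812 genes (filterByExpr), normalized by TMM and fitted robust quasi-likelihood models with 1 mean per group to all 12 mice, and 6 contrasts were tested at a Benjamini-Hochberg adjusted p under 0.05 over all tested genes. A two-sided exact permutation test over mice was used for shares of counts of single genes. Log2 CPM used a prior count of 2. Transcript lengths were those of GENCODE vM39 (longest per gene) and promoters from RefSeq. The steps were tested on simulated data only for the fasting contrast in livers labelled Nts-/-, with far fewer genes changed than were called in these livers.

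Alternatives were RLE and upper-quartile factors, DESeq2 1.42.0, voom of limma 3.58.1, filtering at 10 or more counts per mouse or not at all, dropping mitochondrially encoded genes, removal of the trend with gene length, only the 6 mice compared, coding length for levels, and leaving out each mouse. The 8 members and all lists were chosen with earlier results of these data known. All members are described, and of the pathway list the genes past the threshold in at least 1 contrast, the gene of smallest p in each group and isozymes of members are named. One item on that list is not reported here. Depth ran from 21999647 to 45273069 counts a mouse, and the common coefficient of variation between mice was 0.202.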

Additional observations from a re-analysis of the deposited data

How the results depend on the processing

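The averaged fasting comparison called 6 of 8 members under each of its 20 alternatives. Over these alternatives, run with edgeR, DESeq2 or limma-voom, the largest adjusted p was 0.0499 for Otc, close to the threshold, and 0.00027 for Asl. In Nts+/+ livers 4 members were called, 3 to 5 under other settings and 2 to 5 with 1 mouse left out (2 without mouse 282). In livers labelled Nts-/- 4 were called, 4 to 5 under other settings and 2 to 4 with 1 mouse left out (2 without mouse 303, 284 or 290). DESeq2 called 5 in each, adding Cps1. Genotype and the difference of responses called 0 members under every alternative. Over all genes DESeq2 called 8 between fed genotypes, 4 between fasted genotypes and 3 for the difference of responses, where edgeR called 0. The log2 change of Ass1 in Nts+/+ livers, near 0, turned to -0.0286 with upper-quartile factors, -0.0698 with limma-voom and -0.00100 with the demand of at least 10 counts in every mouse. With the length trend removed, the fasted genotype difference of Cps1 became 4.5e-05 and the difference of responses of Car5a -0.0917. Causes were not tested.

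With 1 mouse left out, signs turned for changes that had not passed, and each of these log2 changes spanned 0. In Nts+/+ livers fasting changed Ass1 by -0.37 to 0.32 and Nags by -0.25 to 0.00762, and averaged over genotypes Ass1 by -0.31 to 0.0317. Between fed genotypes the ranges were -0.0275 to 0.15 for Cps1, -0.0614 to 0.15 for Otc, -0.0448 to 0.20 for Ass1, -0.00957 to 0.14 for Arg1, -0.12 to 0.14 for Nags and -0.14 to 0.25 for Car5a. Between fasted genotypes they were -0.25 to 0.27 for Cps1, -0.48 to 0.22 for Ass1, -0.19 to 0.17 for Arg1, -0.35 to 0.24 for Gls2 and -0.25 to 0.37 for Car5a. For the difference of responses they were -0.32 to 0.20 for Cps1, -0.58 to 0.11 for Ass1, -0.047 to 0.45 for Asl, -0.25 to 0.11 for Arg1 and -0.30 to 0.31 for Car5a. No paired analysis was possible because the groups share no mouse numbers.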
